A study of Mus musculus with 36 samples.

Results

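The 11 induced pluripotent stem (iPS) clones made with Oct4, Sox2, Klf4 and Tbx3 (OSKT) were compared with embryonic stem (ES) cells of the line R1. Members were chosen by sample title, which gave 15 of the 36 samples of the study: 11 OSKT clones and 4 replicates of R1. OSKT clones were derived from mouse embryonic fibroblasts that overexpressed all 4 factors, and each sample is 1 clone. R1 is a single established ES line, here grown on mouse ES cell medium. The study also holds 11 clones made with Oct4, Sox2 and Klf4 (OSK), 8 made with Oct4, Sox2 and Esrrb (OSE) and 2 replicates of the ES line D3 on fibroblast medium, which are used below for orientation. The labels give no strain, sex or passage, so differences of reprogramming, of genetic background, of sex and of culture history between the clones and R1 cannot be told apart.

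Mouse ES cells hold their state through a network of transcription factors in which Oct4 (gene Pou5f1), Sox2 and Nanog bind each other's regulatory regions, supported by Esrrb, Klf and Tbx3 factors and by leukaemia inhibitory factor (LIF), which acts through Stat3. Fibroblasts that overexpress some of these factors shut down their mesenchymal genes, take on epithelial junctions and switch on the endogenous network, after which the iPS cells can be grown as clones. Tbx3 is a T-box factor of the network, and the title of the study names it in relation to the germ-line competency of iPS cells.

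Gene expression was read on a 1-colour Illumina bead array, and values are normalized log2 signals, in which 1 unit is a 2-fold difference. A level is compared between samples for the same probe, never between genes, and each gene rests on 1 probe. Genes that passed the test ("rose", "fell") had a Benjamini-Hochberg adjusted p under 0.05 in a limma fit over 10533 features. Between 8788 and 9527 probes stood above background in OSKT clones and between 9289 and 9720 in R1 arrays, and the number of arrays limits the precision. Some clones were nearly the same: 6 of the 55 pairs of OSKT clones differed by no more than the most distant pair of R1 arrays (root mean square log2 difference 0.222), which links the 11 clones into 6 clusters. No source states that clones came from separate cultures or infections, so p-values measure the spread between these samples. The typical gene had an SD of 0.183 among OSKT clones and of 0.100 among R1 arrays (median over features).

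The cell type named by the labels was checked against markers. Of 10 markers of pluripotent cells, 8 were tested (Pou5f1, Sox2, Nanog, Esrrb, Zfp42, Tdgf1, Utf1 and Lin28a), and every one was above background on all 11 OSKT and all 4 R1 arrays. Their mean level was 10.77 to 11.39 in OSKT clones and 12.02 to 12.09 in R1 cells. Of the 8, 4 fell and 1 rose, and the largest fall among them was that of Zfp42, described below. Marker counts are to be read against the shares over all features, of which 26.4% rose and 27.9% fell. Pou5f1 and Nanog did not pass. Of 8 tested fibroblast markers, 4 were above background on every OSKT array and 1 on none, against 5 and 2 on the R1 arrays. Of these fibroblast markers, 4 rose and 1 fell against R1. The mean of these 8 was 8.72 to 8.99 in OSKT clones 1 to 4, 8.11 to 8.36 in OSKT clones 5 to 11 and 8.19 to 8.25 in R1 cells.

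OSKT clones differed from R1 cells across much of the array. Of 10533 features, 5724 (54.3%) passed, 2785 of them higher (26.4%) and 2939 lower (27.9%) in OSKT clones. Counts for the gene lists below are to be read against these shares. Differences reached 2-fold or more in 944 features (8.96%), 491 higher (4.66%) and 453 lower (4.3%). With genes that one group kept below background set at the detection limit, these became 429 higher and 407 lower. Every OSKT clone lay above all 4 R1 arrays for 1873 features (17.8%) and below them for 2056 (19.5%). Over all features, the correlation of an array with the R1 mean was 0.941 to 0.953 for OSKT clones and 0.940 to 0.953 for OSK clones, against 0.981 for D3 cells and 0.996 to 0.998 for an R1 array left out of that mean. These correlations run across genes, which are not independent, and are descriptions. With arrays scaled to a common median, the median of all features shifted to -0.10, and 2027 features were higher and 3701 lower.

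**Figure D1:**
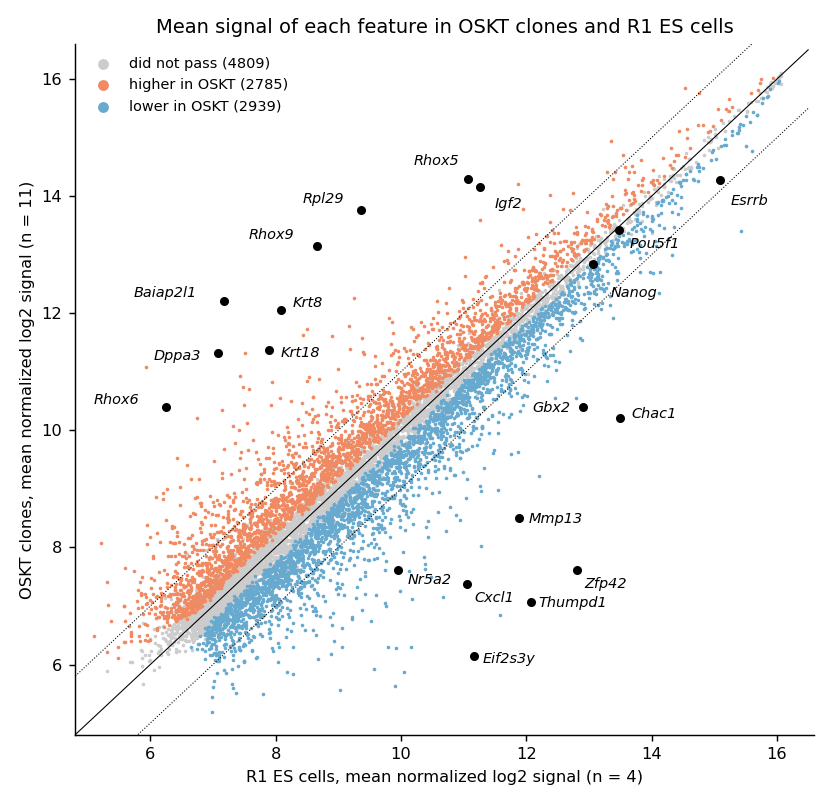
Mean normalized log2 signal of each of 10533 features in OSKT clones (vertical axis, n = 11) and R1 ES cells (horizontal axis, n = 4), coloured by the limma call, with the line of equal signal solid and the 2-fold lines dotted. Baiap2l1, Rhox9 and Rpl29 stand far above the diagonal and Zfp42 and Thumpd1 far below it, whereas Pou5f1 lies on it.

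Genes were ranked among those with an informative symbol (not a clone or predicted-gene identifier) that stood above background on most arrays of both groups. The largest rises were those of Baiap2l1, Rhox9 and Rpl29. Baiap2l1 is an adaptor that links membranes to actin, Rhox9 a homeobox gene described below and Rpl29 a protein of the large ribosomal subunit. Baiap2l1 read 11.99, 12.26 and 12.38 (lowest, median and highest of 11) in OSKT clones, against 7.23, 7.07, 7.27 and 7.12 in R1 cells, a 32.9-fold difference (log2 difference 5.04, SE 0.13, adjusted p = 6.13e-27). Rpl29 read 13.50, 13.82 and 13.93 in OSKT clones, against 9.35, 9.41, 9.36 and 9.30 in R1 cells (21.2-fold, adjusted p = 1.74e-32). For both genes the clones lay close together and far from R1. Further down the order, the anion exchanger Slc4a3 (14-fold), the bacterial sensor Nod1 (11.2-fold), the carbonic anhydrase Car4 (9.62-fold) and the cadherin-related Cdhr1 (9.24-fold) were each above all R1 arrays in 11 of 11 clones. At the other end, Thumpd1, a factor for acetylation of tRNA, read 6.83, 7.14 and 7.33 in OSKT clones, against 12.13, 12.17, 11.96 and 12.02 in R1 cells (32-fold lower, adjusted p = 4.45e-29). Abhd16a, a phospholipase, was 11.4-fold lower, Apod, an apolipoprotein, 6.81-fold lower, and Calml4, a calmodulin-like protein, 6.73-fold lower.

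The same genes were read against D3, the second ES line, in the same fit and with the same OSKT arrays, so the comparisons share those samples and are set side by side only. Against D3, 5079 features (48.2%) passed, 2337 higher (22.2%) and 2742 lower (26%). Baiap2l1 had a log2 difference of 5.41, Rpl29 of 5.02, Nod1 of 3.85, Thumpd1 of -5.24 and Abhd16a of -3.66 from D3, and all 5 passed (largest adjusted p = 2.59e-12).

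**Figure D2:**
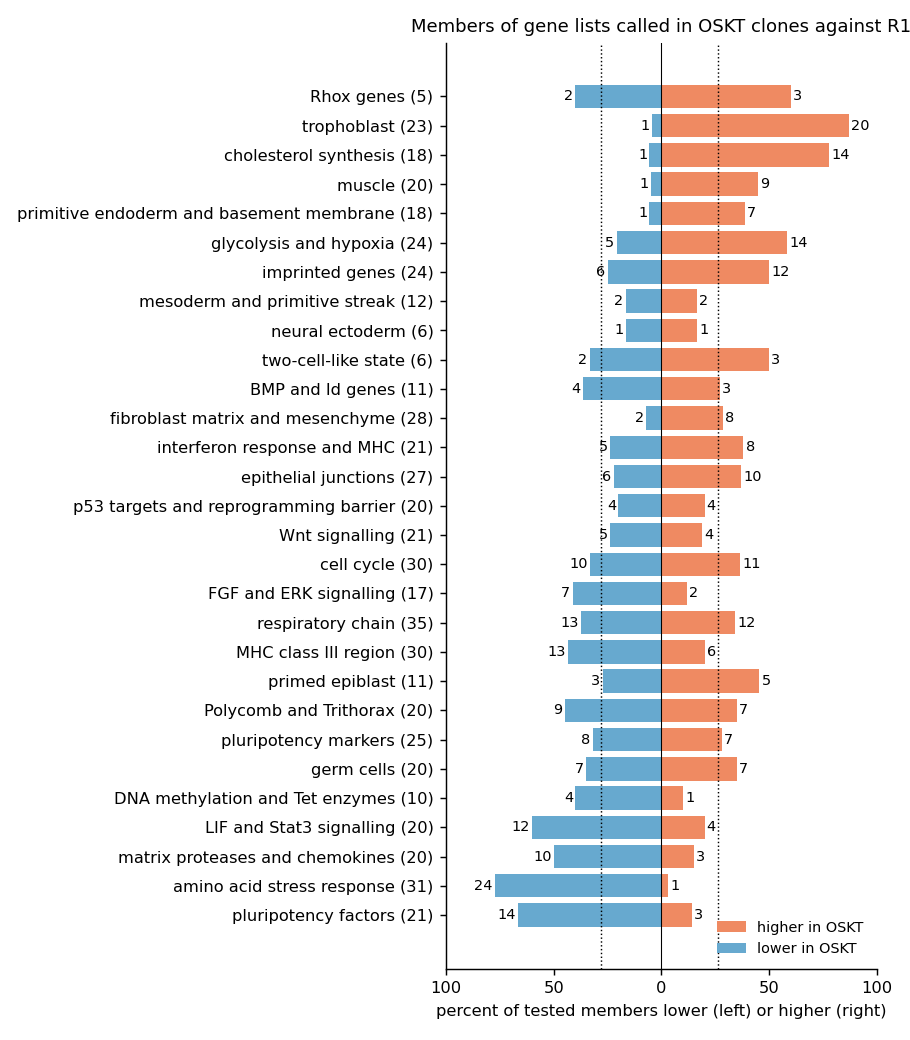
Percent of the tested members of each gene list that passed as lower (left, blue) or higher (right, orange) in OSKT clones against R1, with the number of members beside each bar, the number tested in brackets and the shares over all features (27.9% lower, 26.4% higher) dotted. Trophoblast (20 of 23 higher) and cholesterol synthesis (14 of 18 higher) reach farthest to the right, and the amino acid stress response (24 of 31 lower) and pluripotency factors (14 of 21 lower) farthest to the left.

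Among the transcription factors of pluripotency, more members were lower than higher in OSKT clones. Of 21 tested, 14 fell, 3 rose and 4 did not pass, with a median log2 difference of -0.75, against -0.003 over all features; 14 lay below all R1 arrays in every clone. Against OSK clones, 5 of the 21 were higher and 1 lower, where 19.5% of all features were higher and 16% lower. In bulk samples, fewer cells that express a gene and less RNA per cell cannot be told apart. The 4 that did not pass were Pou5f1, Nanog, Tbx3 and Tfcp2l1. Pou5f1 read 12.99, 13.54 and 13.73 in OSKT clones, against 13.48, 13.46, 13.36 and 13.63 in R1 cells, so that the groups overlapped (log2 difference -0.05, SE 0.11, adjusted p = 0.72, 95% interval -0.29 to 0.18). In OSKT clones 1 to 4 alone Pou5f1 passed as lower (-0.36, adjusted p = 0.00905), and in clones 5 to 11 alone it did not pass (0.12, adjusted p = 0.279). Nanog read 12.26, 13.01 and 13.23 in OSKT clones, against 13.17, 12.96, 13.18 and 12.93 in R1 cells, again with overlap (log2 difference -0.22, adjusted p = 0.152). Nanog passed as lower in clones 1 to 4 alone (-0.65, adjusted p = 6.78e-06) and over all clones with arrays scaled to a common median (-0.38, adjusted p = 0.0164), but not in clones 5 to 11 alone (0.02, adjusted p = 0.87). Tbx3, the added factor, read 10.36, 11.04 and 11.22 in OSKT clones, against 11.23, 11.04, 11.20 and 11.21 in R1 cells (log2 difference -0.29, adjusted p = 0.172). In OSKT clones 1 to 4 alone Tbx3 was lower than in R1 (log2 difference -0.64, adjusted p = 0.0118), and in clones 5 to 11 alone it did not pass (-0.10, adjusted p = 0.669). With median scaling Tbx3 was lower over all clones as well (-0.49, adjusted p = 0.0153). Whether these probes also read the introduced factors is not given in the sources used here.

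Zfp42, the zinc-finger marker of naive pluripotency also called Rex1, had the largest fall among genes with an informative symbol measured in both groups. It read 7.16, 7.60 and 7.95 in OSKT clones, against 12.82, 12.75, 12.77 and 12.91 in R1 cells, a 36.9-fold difference (log2 difference -5.21, SE 0.13, adjusted p = 6.08e-28). No clone came near the R1 level, although the gene stayed above background in all 11 clones, and it was also lower than in D3 cells (log2 difference -4.75, adjusted p = 4.87e-23). Gbx2, a homeobox target of LIF, was 5.67-fold lower, with 9.70, 10.40 and 10.86 in OSKT clones and 12.90, 12.96, 12.79 and 12.96 in R1 cells (adjusted p = 3.09e-12). Nr5a2, a nuclear receptor that drives Pou5f1 in the embryo, was 5.06-fold lower, with 7.21, 7.64 and 7.91 in OSKT clones and 9.98, 9.93, 9.98 and 9.93 in R1 cells (adjusted p = 2.85e-17). Neither gene overlapped between the groups.

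Klf factors, Esrrb and Sox2 were lower too. Klf4, 1 of the 4 introduced factors, read 8.75, 9.81 and 10.02 in OSKT clones, against 10.89, 10.91, 10.75 and 10.96 in R1 cells (2.48-fold lower, adjusted p = 1.26e-06). Klf5, a related factor, was 2.53-fold lower (adjusted p = 1.53e-10) and Klf2 1.73-fold lower (adjusted p = 3.04e-05). Esrrb, an orphan nuclear receptor, read 13.95, 14.32 and 14.57 in OSKT clones, against 15.10, 15.08, 15.15 and 15.05 in R1 cells (1.77-fold lower, adjusted p = 2.28e-06). Sox2 was 1.46-fold lower, with 9.65, 10.28 and 10.55 in OSKT clones and 10.73, 10.62, 10.67 and 10.66 in R1 cells (adjusted p = 0.000484). Each of these 5 genes lay below all 4 R1 arrays in 11 of 11 clones. The group means differed by 1.46-fold to 2.53-fold, and the highest Sox2 clone (10.55) lay close to the lowest R1 array (10.62). Nr0b1, a co-repressor of the network, stood above background in 0 of 11 OSKT clones but 4 of 4 R1 arrays, at least 1.57-fold lower in OSKT clones. Sall4, a zinc-finger factor that cooperates with Oct4, was 2.43-fold higher, with 10.69, 10.91 and 11.02 in OSKT clones and 9.67, 9.81, 9.47 and 9.42 in R1 cells (adjusted p = 4.75e-17). Tfe3, a bHLH factor on the X chromosome, was 1.51-fold higher and Tcf3, an E protein, 1.17-fold higher, which no longer passed when arrays were scaled to a common median (log2 difference 0.04).

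**Figure D3:**
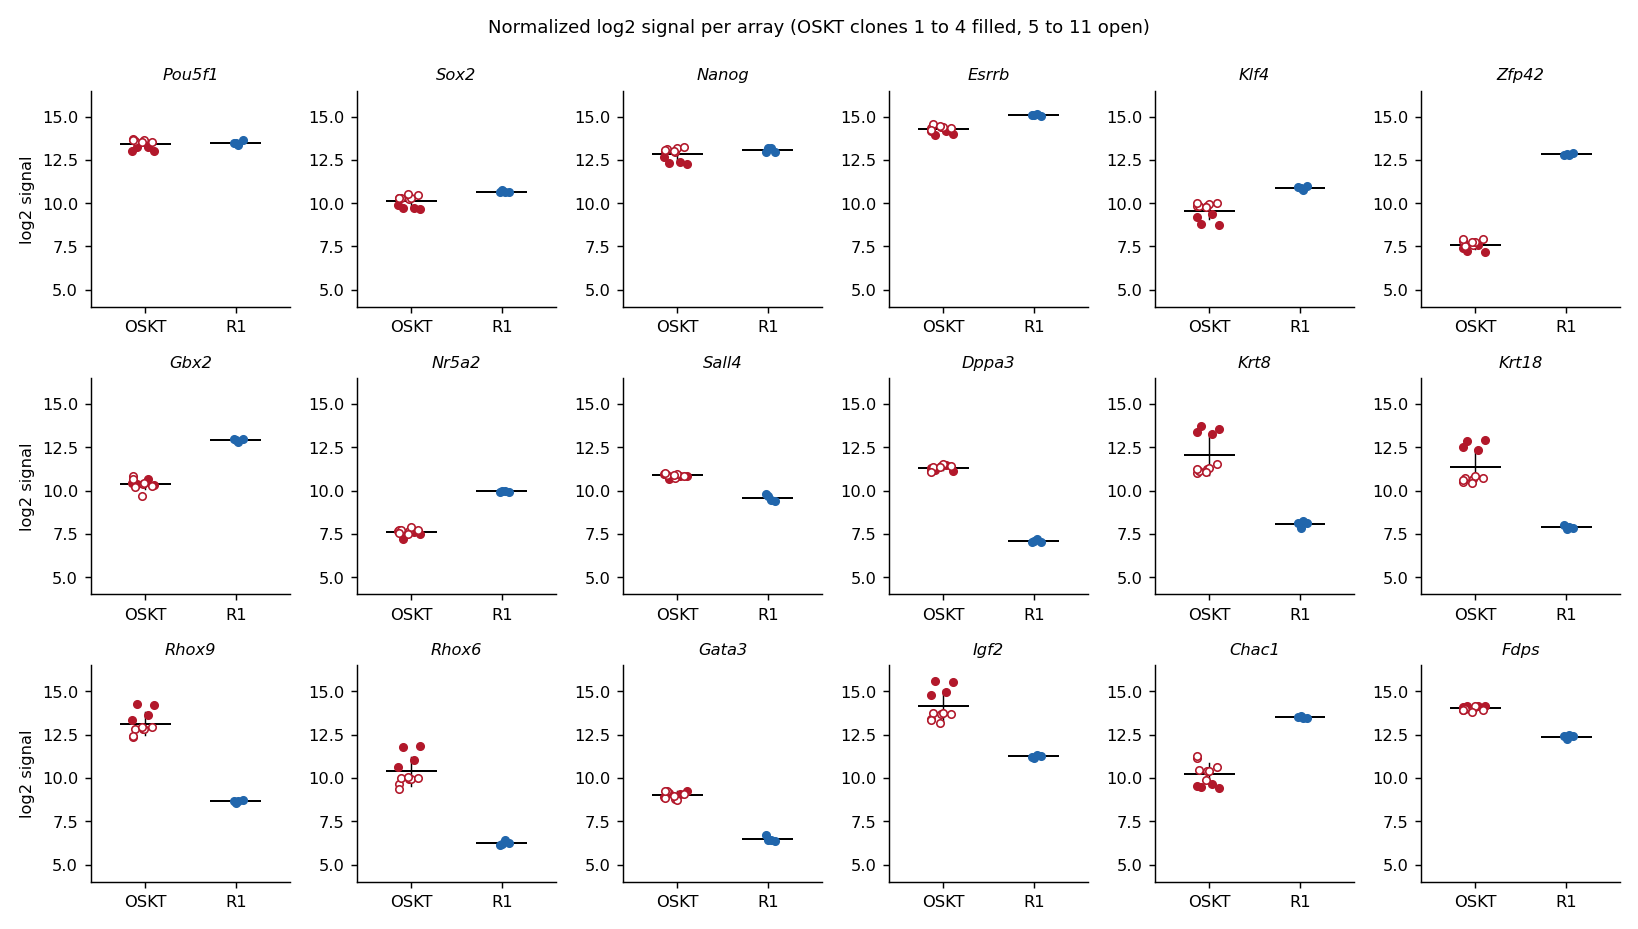
Normalized log2 signal per array of 18 genes in OSKT clones (left of each panel, red, clones 1 to 4 filled and 5 to 11 open, n = 11) and R1 ES cells (right, blue, n = 4), with the mean and SD as lines. Pou5f1 and Nanog overlap between the groups, Zfp42, Gbx2, Nr5a2 and Chac1 lie lower in every clone, and Dppa3, the keratins and the Rhox genes lie higher in every clone.

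Surface and downstream markers of pluripotency were mixed. Of 25 tested, 7 rose, 8 fell and 10 did not pass, with a median log2 difference of -0.16. These counts were near the shares over all features (26.4% higher, 27.9% lower). Dppa3, a chromatin protein of the oocyte and of primordial germ cells that protects DNA methylation in the zygote, had the largest rise of the list. It read 11.08, 11.35 and 11.52 in OSKT clones, against 7.10, 7.02, 7.18 and 7.05 in R1 cells (18.8-fold, log2 difference 4.23, SE 0.12, adjusted p = 3.31e-26), with a wide gap between the groups. It was higher than in D3 cells as well (log2 difference 2.55, adjusted p = 1.45e-15). Lefty2, an inhibitor of Nodal, was 1.99-fold higher, whereas its target Nodal was 1.38-fold lower and Bmp4, a ligand of the BMP pathway, 2.72-fold lower. Bmp4 fell in OSKT clones 5 to 11 taken alone (log2 difference -1.98, adjusted p = 9.83e-08) and did not pass in clones 1 to 4 alone (-0.50, adjusted p = 0.168).

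Genes of germ cells were split evenly, with 7 of 20 higher, 7 lower and 6 that did not pass (median log2 difference -0.21). Over all features 26.4% were higher and 27.9% lower. Beside Dppa3, those that rose included Tfap2c, a factor of primordial germ cells and trophoblast (2.36-fold), and the membrane proteins Ifitm3 (1.56-fold) and Ifitm1 (1.37-fold) of early germ cells. Those that fell included genes of meiosis and of the piRNA pathway. Stag3, a cohesin subunit of meiosis, read 8.54, 9.25 and 9.84 in OSKT clones, against 12.18, 12.15, 12.26 and 12.23 in R1 cells (7.88-fold lower, adjusted p = 1.07e-11), with no overlap. Mov10l1, a helicase of the piRNA pathway, was 3.18-fold lower, Tex14, a protein of germ cell bridges, 2.65-fold lower, Tex11, a meiotic gene on the X chromosome, 2.22-fold lower and Dazl, an RNA-binding protein of germ cells, 1.96-fold lower. Obox6, an oocyte homeobox gene on the list of the 2-cell-like state, was 7.62-fold higher, with 9.45, 10.71 and 11.06 in OSKT clones and 7.48, 7.50, 7.56 and 7.47 in R1 cells (adjusted p = 7.75e-13), and it was higher than in OSK clones (log2 difference 1.22, adjusted p = 2.47e-06).

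Genes of LIF and Stat3 signalling, both components and responding genes, were lower more often than higher. The lists share members: Gbx2 is also among the pluripotency factors, and Spry4 is also in the FGF and ERK list. Of 20 tested, 12 fell, 4 rose and 4 did not pass (median log2 difference -0.48). Spry4, a feedback inhibitor of receptor signalling, read 8.35, 9.09 and 9.38 in OSKT clones, against 11.54, 11.73, 11.38 and 11.56 in R1 cells (5.92-fold lower, adjusted p = 6.51e-14), with no overlap. Stat3 itself was 1.68-fold lower (adjusted p = 2.93e-10) and the kinase Jak1 1.39-fold lower. Cish, another cytokine feedback inhibitor, went the other way (2.24-fold higher, adjusted p = 2.69e-13), as did the receptor subunit Osmr (1.7-fold higher).

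In the FGF and ERK pathway, which primes ES cells for differentiation, fewer members rose than fell. Of 17 tested, 7 fell, 2 rose and 8 did not pass (median log2 difference -0.03). The 2 higher became 1 without OSKT replicate 1, 2, 3 or 4 or any R1 replicate. The phosphatase Dusp6 was 2.45-fold lower, with 8.90, 9.31 and 9.96 in OSKT clones and 10.71, 10.71, 10.60 and 10.73 in R1 cells (adjusted p = 1.49e-06). The ETS factor Etv5 was 2.13-fold lower and the immediate early factor Egr1 2.68-fold lower, each below all R1 arrays in 11 of 11 clones. The ligand Fgf4 did not pass over all clones (log2 difference 0.39, adjusted p = 0.297), with -0.47 in clones 1 to 4 (adjusted p = 0.206) and 0.89 in clones 5 to 11, where it passed (adjusted p = 0.0044). Of 21 Wnt genes, 4 rose and 5 fell, where 26.4% rose and 27.9% fell over all features. The co-receptor Lrp6 was 2.78-fold higher, and the receptor Fzd5 2.81-fold and the secreted inhibitor Sfrp1 2.29-fold lower. The 5 lower became 3 without R1 replicate 3. Of 11 BMP and Id genes, 3 rose and 4 fell. Id2, an inhibitor of bHLH factors, was 4.28-fold higher, with 9.28, 9.71 and 10.00 in OSKT clones and 7.67, 7.49, 7.68 and 7.41 in R1 cells (adjusted p = 1.49e-15), and Bmp7, a ligand, was 2.86-fold higher.

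Genes of the trophoblast, the lineage that forms the placenta, were higher in OSKT clones. Of 23 tested, 20 rose, 1 fell and 2 did not pass, and 18 were above all R1 arrays in every clone. The median log2 difference was 1.22, or 1.04 with genes below background in one group at their bound. Among its transcription factors, Gata3 read 8.74, 9.07 and 9.28 in OSKT clones and was above background in 11 of 11, against 6.39, 6.69, 6.44 and 6.35 in R1 cells, where it was above background in 0 of 4, at least 4.36-fold higher (adjusted p = 3.12e-16). Cdx2, which specifies trophoblast, read 7.62, 7.98 and 9.09 in OSKT clones, against 6.77 to 7.39 in R1 cells (2.13-fold, adjusted p = 0.00318). Ascl2, of placental precursors, was 1.9-fold higher and Gata2 2.06-fold higher, while Eomes did not pass over all clones (log2 difference 0.87, adjusted p = 0.0889) and passed in clones 1 to 4 alone (1.69, adjusted p = 0.00705). Sct, the hormone secretin, was 9.35-fold higher. Of the 6 markers set down for trophoblast, 4 were tested (Cdx2, Gata3, Eomes and Hand1), and their mean was 8.48 to 8.71 in OSKT clones 1 to 4, 7.52 to 7.78 in OSKT clones 5 to 11 and 6.52 to 6.74 in R1 cells. The part of cells of other lineages in these differences was not tested. Against D3 cells, 17 of the 23 were higher and 0 lower; against OSK clones, where 35.5% of all features passed, 19.5% higher and 16% lower, 4 were higher and 8 lower.

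The simple epithelial keratins, which form the filaments of the first epithelia of the embryo, belong to the same list. Krt8 read 11.02, 11.30 and 13.71 in OSKT clones, against 7.85, 8.13, 8.27 and 8.11 in R1 cells (log2 difference 3.96, SE 0.43, adjusted p = 1.06e-09). Its partner Krt18 read 10.46, 10.74 and 12.90 in OSKT clones, against 7.80, 8.03, 7.92 and 7.85 in R1 cells (11.1-fold, adjusted p = 6.1e-10), and Krt7 was 9.04-fold higher. Clones 1 to 4 were the high ones, with a median of 13.48 for Krt8 and 12.69 for Krt18, against 11.24 and 10.68 in clones 5 to 11. Both sets of clones lay wholly above R1. In the wider list of epithelial junction genes 10 of 27 rose and 6 fell (median log2 difference 0.11), with the claudin Cldn3 3.41-fold and the protease Prss8 3.24-fold higher and the epithelial factor Grhl2 2.6-fold lower. E-cadherin, Cdh1, did not pass (log2 difference -0.05, adjusted p = 0.732). Against OSK clones, 0 of the 27 junction genes were higher and 12 lower, where 19.5% of all features were higher and 16% lower.

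The Rhox genes, a homeobox cluster on the X chromosome active in placenta and germ line, went in both directions. Rhox9 read 12.37, 12.93 and 14.25 in OSKT clones, against 8.55, 8.68, 8.66 and 8.73 in R1 cells (22.4-fold, log2 difference 4.48, SE 0.29, adjusted p = 2.94e-15). Rhox6 read 9.38, 10.01 and 11.87 in OSKT clones and was below background on all 4 R1 arrays, at least 11.2-fold higher (adjusted p = 1.78e-12). Rhox5 was 9.35-fold higher, with 13.88, 14.31 and 14.56 in OSKT clones and 10.97, 11.15, 11.00 and 11.15 in R1 cells. Rhox13 was 4.64-fold lower, with 8.10, 9.28 and 9.89 in OSKT clones and 11.38, 11.20, 11.33 and 11.11 in R1 cells (adjusted p = 3.57e-09), and Rhox10 was 1.91-fold lower. None of the 5 overlapped between the groups. Against D3, Rhox9, Rhox6 and Rhox5 were higher, by log2 3.81, 3.48 and 3.39, and Rhox13 and Rhox10 did not pass (adjusted p = 0.649 and 0.64).

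Genes with expression from the maternal or the paternal allele alone were more often higher than lower against R1, but not against D3. Of 24 imprinted genes tested, 12 rose, 6 fell and 6 did not pass, with a median log2 difference of 0.30, or 0.02 with genes below background in one group at their bound. Against D3, 6 were higher and 7 lower, where 22.2% of all features were higher and 26% lower. Igf2, a paternally expressed growth factor, read 13.17, 13.74 and 15.62 in OSKT clones, against 11.18, 11.22, 11.34 and 11.29 in R1 cells (7.48-fold, adjusted p = 4.87e-10), with no overlap. Xlr3b, an imprinted gene of the X chromosome, was 4.57-fold higher and Peg3, a paternally expressed zinc-finger gene, 1.96-fold higher. Dlk1, of the Dlk1-Dio3 region, was 1.53-fold higher, with 8.72, 9.12 and 9.42 in OSKT clones and 8.50, 8.44, 8.43 and 8.44 in R1 cells (adjusted p = 5.25e-06), but lower than in D3 cells (log2 difference -0.44, adjusted p = 0.00759). Impact, an imprinted regulator of translation, was 1.64-fold lower.

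X-linked genes as a whole stood higher in OSKT clones than in R1 cells. Of 295 tested, 170 rose and 25 fell (median log2 difference 0.37), whereas of 8935 autosomal genes 2290 rose and 2597 fell (median -0.01). The median over X-linked genes of the difference from the R1 mean was 0.207 to 0.330 in OSKT clones 1 to 4 and 0.406 to 0.532 in OSKT clones 5 to 11, against -0.015 to 0.015 in R1 arrays. It was 0.092 to 0.344 in OSK clones, -0.049 to 0.144 in OSE clones and 0.044 to 0.064 in D3 cells. The Y-linked Eif2s3y, a subunit of a translation initiation factor, read 5.56, 6.14 and 6.63 in OSKT clones and 11.32, 10.97, 11.22 and 11.15 in R1 cells. All 4 R1 arrays and 0 of 11 OSKT clones were above background, which makes it at least 18.3-fold lower in OSKT clones (adjusted p = 2.3e-17). The X-linked level and the absence of this Y-linked signal go together with the comparison in every clone, and the part of the sex chromosomes in other differences was not tested.

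A stretch of chromosome 14 also stood apart. When each autosome was divided into 4 parts with equal numbers of genes, in RefSeq order, the last part of chromosome 14 (80 features, from Pnma2 to Ggact) had a median log2 difference of -0.33, with 40 features lower (50%) and 10 higher (12.5%). The part before it on chromosome 14 was low as well, with a median of -0.21 and 42.5% of its features lower, and array medians of -0.346 to -0.157 in OSKT clones 5 to 11, against -0.019 to 0.010 in R1 arrays. The 72 parts of the other autosomes had medians between -0.18 and 0.14. The array medians of the last part were -0.549 to -0.369 in OSKT clones 5 to 11 and -0.182 to -0.057 in OSKT clones 1 to 4, against -0.017 to 0.013 in R1 arrays. In OSK clones they were -0.145 to -0.027, in OSE clones -0.090 to -0.001 and in D3 cells -0.064 to -0.013. In the last part the 7 higher-numbered clones thus lay below every other array of the study. This stretch was singled out after the values were seen, so it is given with no test.

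**Figure D4:**
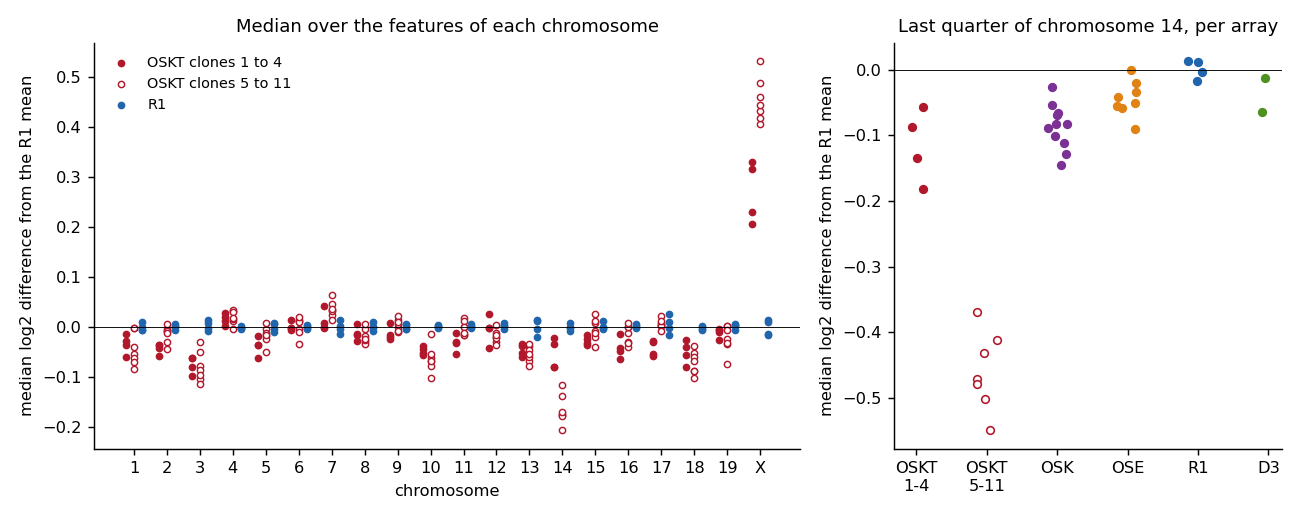
Left, the median log2 difference from the R1 mean over the features of each chromosome, 1 point per array, for OSKT clones 1 to 4 (filled red), OSKT clones 5 to 11 (open red) and R1 (blue). Right, the same median over the last of the 4 parts of chromosome 14 for all 36 arrays by group. The X chromosome is high in every OSKT clone, and the last part of chromosome 14 is low in OSKT clones 5 to 11, at -0.549 to -0.369.

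Some genes were read in 1 of the groups alone. Among genes with an informative symbol that passed, 66 were above background on all 11 OSKT and no R1 array, and 102 on all 4 R1 and no OSKT array. Beside Rhox6 and Gata3, the first set held Tm7sf3, a membrane protein (at least 6.19-fold), Cd3d, a chain of the T-cell receptor complex (at least 5.7-fold), Lars2, a mitochondrial tRNA synthetase (at least 4.79-fold), Eif3j1, of a translation initiation factor (at least 4.28-fold), and Heph, an iron oxidase (at least 4.06-fold). H2-D1, a class I antigen of the major histocompatibility complex (MHC), read 8.27, 8.96 and 9.14 in OSKT clones, against 6.15, 6.32, 6.29 and 6.06 in R1 cells, at least 3.81-fold higher. Its partner B2m was 2.03-fold lower and H2-K1 did not pass (log2 difference 0.11, adjusted p = 0.606). After Eif2s3y, the second set held the olfactory receptor Olfr887 (at least 9.13-fold lower in OSKT clones), the unconventional myosin Myo1f (at least 8.41-fold), the protease inhibitor Spink10 (at least 7.62-fold), the protease Napsa (at least 7.03-fold) and the lysine-degrading enzyme Aass (at least 4.25-fold). All of these were below every R1 array in 11 of 11 clones.

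Some chemokines, matrix proteases and interferon genes were lower in OSKT clones than in R1, and several of these did not pass, or were higher, against D3. Of 20 tested proteases and chemokines, 10 fell, 3 rose and 7 did not pass against R1 (median log2 difference -0.56). The 3 higher became 1 without R1 replicate 3. Against D3 cells, 8 were higher and 3 lower. Cxcl1, a chemokine for neutrophils, read 7.08, 7.40 and 7.58 in OSKT clones, against 11.06, 11.02, 11.13 and 11.03 in R1 cells and 9.22 and 9.22 in D3 cells (12.8-fold lower than R1, adjusted p = 1.49e-26). It was lower than in both ES lines. Ccl2, which attracts monocytes, read 6.21, 7.39 and 8.27 in OSKT clones, against 9.96, 10.14, 10.39 and 10.21 in R1 cells and 7.06 and 7.26 in D3 cells (8.29-fold lower than R1, adjusted p = 3.52e-08). Its difference from D3 did not pass (adjusted p = 0.963). The collagenase Mmp13 read 8.08, 8.43 and 9.09 in OSKT clones, against 11.84, 11.92, 11.83 and 11.96 in R1 cells and 6.90 and 6.78 in D3 cells, so OSKT clones lay between the ES lines, 10.5-fold below R1 and log2 1.66 above D3. Ccl7 and the stromelysin Mmp3 lay between the ES lines in the same way.

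Ccl5 and Cxcl5, chemokines of T cells and neutrophils, were below background in 11 of 11 OSKT clones and above it in 4 of 4 R1 arrays, at least 6.03-fold and 4.15-fold lower than R1. Against D3 neither passed (adjusted p = 0.722 and 0.788). Of 21 genes of the interferon response and antigen presentation, 8 rose and 5 fell against R1. Ifit3, an antiviral protein, was at least 3.9-fold lower than R1 and did not pass against D3 (adjusted p = 0.276). Ifi27, an interferon-induced gene outside the list, was 9.55-fold lower than R1, with 6.99, 8.12 and 8.82 in OSKT clones and 11.36, 11.12, 11.47 and 11.18 in R1 cells, but higher than D3 (log2 difference 0.95, adjusted p = 0.0351). Tap2, a peptide transporter, and Irf1, an interferon-responsive factor, were 2-fold and 2.03-fold higher than R1. R1 and D3 differ in line and in medium, which cannot be told apart.

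**Figure D5:**
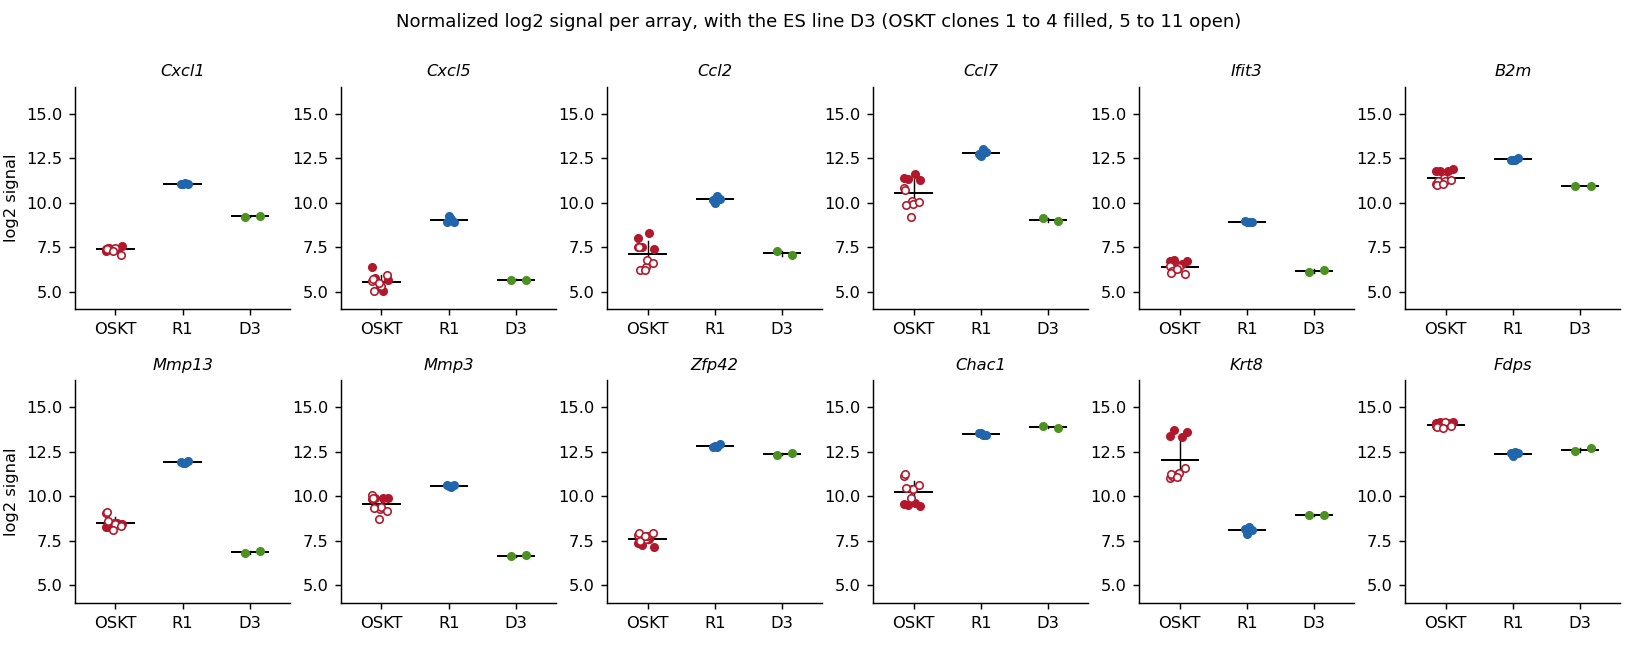
Normalized log2 signal per array of 12 genes in OSKT clones (red, clones 1 to 4 filled, 5 to 11 open), R1 ES cells (blue) and D3 ES cells (green), with the mean and SD as lines. For Cxcl5, Ccl2 and Ifit3 the OSKT clones lie with D3 and below R1, whereas for Zfp42 and Chac1 they lie below both ES lines and for Krt8 and Fdps above both.

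Genes of the amino acid stress response, which Atf4 switches on when amino acids run short or proteins misfold, were lower in OSKT clones. Of 31 tested, 24 fell, 1 rose and 6 did not pass, with a median log2 difference of -0.71, and 20 lay below all R1 arrays in every clone. Against D3, 24 were lower and 1 higher. Against OSK clones, 11 of the 31 were higher and 5 lower, where 19.5% of all features were higher and 16% lower. Chac1, an enzyme that degrades glutathione, read 9.44, 10.38 and 11.26 in OSKT clones, against 13.56, 13.54, 13.46 and 13.44 in R1 cells (9.77-fold lower, log2 difference -3.29, SE 0.28, adjusted p = 2.47e-12). Trib3, a pseudokinase that feeds back on Atf4, was 3.69-fold lower, with 8.72, 9.17 and 9.63 in OSKT clones and 10.98, 11.14, 10.99 and 11.09 in R1 cells (adjusted p = 1.68e-11). Neither gene overlapped between the groups. Nupr1, a stress-induced chromatin protein, was 2.76-fold lower, Herpud1, a factor of protein degradation at the endoplasmic reticulum, 2.76-fold lower, Asns, asparagine synthetase, 2.02-fold lower and the amino acid transporter Slc1a4 2.08-fold lower. Atf4 itself was 1.37-fold lower (adjusted p = 0.00205), and just missed the threshold in the authors' scaled values (adjusted p = 0.0513). Ddit3, a stress factor downstream of Atf4, did not pass (log2 difference -0.41, adjusted p = 0.111), but passed as lower with arrays scaled to a common median (-0.59, adjusted p = 0.0112), and Cbs, an enzyme of cysteine synthesis, rose 1.52-fold.

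The promoters of this group were read from RefSeq (GRCm38.p6) because many of its members moved together and Atf4 is known to bind a C/EBP-Atf response element. The motif TGATGNAA, on either strand, was found within 250 bases before the start of 9 of the 26 members that have a promoter entry (34.6%), against 1056 of 27025 genes (3.91%). The 9 were Chac1, Asns, Aars, Gars, Vldlr, Pck2, Nupr1, Herpud1 and Jdp2, of which Vldlr and Pck2 did not pass the test. A match describes these letters and is not a bound site. The list names genes of a response that Atf4 switches on, so a surplus of its motif was built in. The surplus says nothing about OSKT clones against R1, and the 27025 genes are all those with a promoter entry, not the features tested. The windows of 3 matched members that fell are given 5′ to 3′ along the gene's strand, with the match in capitals (TTGCATCA is the motif on the opposite strand). Chac1 lies on the plus strand at chr2:119350992-119351241, Asns on the minus strand at chr6:7693210-7693459 and Herpud1 on the plus strand at chr8:94386179-94386428.
Chac1: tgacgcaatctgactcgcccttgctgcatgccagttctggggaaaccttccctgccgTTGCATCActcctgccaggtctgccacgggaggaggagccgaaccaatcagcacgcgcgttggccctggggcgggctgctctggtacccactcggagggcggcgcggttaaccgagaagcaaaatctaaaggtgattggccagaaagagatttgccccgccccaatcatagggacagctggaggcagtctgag
Asns: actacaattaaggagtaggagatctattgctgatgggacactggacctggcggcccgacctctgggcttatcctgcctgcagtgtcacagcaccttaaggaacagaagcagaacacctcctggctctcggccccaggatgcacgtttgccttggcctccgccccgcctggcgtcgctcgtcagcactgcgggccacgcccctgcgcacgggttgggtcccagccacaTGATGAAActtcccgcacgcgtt
Herpud1: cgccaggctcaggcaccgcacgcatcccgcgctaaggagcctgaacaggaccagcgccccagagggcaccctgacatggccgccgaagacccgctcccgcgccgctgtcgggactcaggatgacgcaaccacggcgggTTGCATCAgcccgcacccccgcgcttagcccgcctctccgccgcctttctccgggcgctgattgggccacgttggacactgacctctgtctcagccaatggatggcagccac

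Genes of cholesterol synthesis were higher. Of 18 tested, 14 rose, 1 fell and 3 did not pass, with a median log2 difference of 0.96, and 15 lay above all R1 arrays in every clone. Fdps, which makes farnesyl diphosphate, read 13.80, 13.97 and 14.16 in OSKT clones, against 12.23, 12.40, 12.47 and 12.43 in R1 cells (3.1-fold, log2 difference 1.63, SE 0.10, adjusted p = 1.23e-16). Dhcr7, the last enzyme of the pathway, was 2.79-fold higher, Insig1, which retains the pathway's regulator in the endoplasmic reticulum, 3.04-fold higher, and Hmgcs1, which makes its early precursor, 2.1-fold higher. Srebf2, the transcription factor of the pathway, was 1.89-fold higher (adjusted p = 1.27e-07). Msmo1, a sterol demethylase, was the member that fell (1.97-fold, adjusted p = 2.4e-09). Against D3, 13 were higher and 1 lower. Against OSK clones, 2 of the 18 were higher and 5 lower, where 19.5% of all features were higher and 16% lower. The sterol regulatory element TCACNCCAC was found in the same window of 1 of 15 members, Hmgcs1 (6.67%), against 331 of 27025 genes (1.22%). Like the motif above, it describes the letters of a list chosen by pathway and not the difference from R1. The window lies on the plus strand at chr13:119690101-119690350 and is shown with its match in capitals, since it is the sole match of the list.
Hmgcs1: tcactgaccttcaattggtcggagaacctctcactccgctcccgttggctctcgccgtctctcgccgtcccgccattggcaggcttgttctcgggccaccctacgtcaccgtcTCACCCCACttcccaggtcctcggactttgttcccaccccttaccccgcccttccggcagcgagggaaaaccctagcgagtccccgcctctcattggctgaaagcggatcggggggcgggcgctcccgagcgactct

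Of 24 genes of glycolysis and hypoxia, 14 rose, 5 fell and 5 did not pass (median log2 difference 0.32). Ndrg1, induced by low oxygen, read 10.93, 11.48 and 11.82 in OSKT clones, against 9.08, 9.17, 9.21 and 9.29 in R1 cells (4.59-fold, adjusted p = 9.95e-11), with no overlap. Ankrd37, another hypoxia-induced gene, was 3.19-fold higher, and the glycolytic enzymes Pfkm, Pkm and Eno2 were 2.71-fold, 2.02-fold and 3.38-fold higher. Ldhb, the aerobic form of lactate dehydrogenase, and Vegfa, an angiogenic ligand, were 1.68-fold and 1.4-fold lower. The 5 lower became 2 or 3 without OSKT replicate 1, 2, 3 or 4 or without R1 replicate 2, 3 or 4. Of 35 subunits of the respiratory chain, 12 rose and 13 fell, against 26.4% and 27.9% of all features. Cox7a2 was 2.26-fold higher and Ndufv1 1.54-fold lower.

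The lists that follow are set against all features, of which 26.4% rose and 27.9% fell. Among chromatin genes, 9 of 20 Polycomb and Trithorax members fell and 7 rose. The H3K4 methyltransferase subunit Ash2l was 2.05-fold and the Polycomb subunit Eed 1.9-fold lower, and the demethylase Kdm5b was 1.82-fold higher. Of 10 genes of DNA methylation, 4 fell and 1 rose. Tet2, which oxidizes methylcytosine, read 7.82, 8.12 and 8.67 in OSKT clones, against 9.70, 9.60, 9.47 and 9.39 in R1 cells (2.49-fold lower, adjusted p = 2.41e-08). Dnmt1, the maintenance methyltransferase, did not pass (log2 difference -0.11, adjusted p = 0.385), but passed as lower with median scaling (-0.32, adjusted p = 0.0194). Of 20 genes of p53 and the reprogramming barrier, 4 rose and 4 fell, both below the shares over all features. Cdkn2a, the Ink4a-Arf gene, was 1.52-fold higher and the DNA damage gene Gadd45a 2.53-fold lower. Of 30 cell cycle genes, 11 rose and 10 fell, with cyclin Ccnd3 2.09-fold and the mitotic kinase Plk1 1.91-fold higher. Of 30 genes of the MHC class III region, 6 rose and 13 fell, with Ddah2, which degrades methylarginines, 2.58-fold lower and Lst1, a leukocyte gene, 2.54-fold higher.

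Genes of other lineages were examined for signs of fibroblasts and of differentiated cells. Of 28 genes of fibroblast matrix and mesenchyme, 8 rose, 2 fell and 18 did not pass (median log2 difference 0.13). The share that rose was near that over all features (26.4% higher, 27.9% lower), against which each list below is also to be read. The collagen Col1a1 read 9.96, 10.57 and 10.97 in OSKT clones, against 9.26, 9.39, 9.09 and 9.33 in R1 cells (2.38-fold, adjusted p = 4.02e-06), and Thy1, a surface marker of fibroblasts, was 2.43-fold higher. Dcn, a matrix proteoglycan, was below background in 11 of 11 OSKT clones and at least 1.71-fold lower. The 2 lower became 1 without R1 replicate 1, 2, 3 or 4, or without OSKT replicate 6, 7, 9, 10 or 11, since Fstl1 then no longer passed. In OSKT clones 1 to 4 alone 15 of the 28 were higher, and in clones 5 to 11 alone 6. Of all 10533 features, 2679 and 2845 were higher in these sets of clones. Against D3 cells, 19 of the 28 were higher and 1 lower, where 22.2% of all features were higher and 26% lower. Of 18 genes of primitive endoderm and its basement membrane, 7 rose and 1 fell, while its factors Gata4 and Gata6 did not pass over all clones (log2 differences 0.05 and 0.68, adjusted p = 0.813 and 0.0536). Gata6 lay close to the threshold and passed as higher over all clones in the authors' scaled values (0.95, adjusted p = 0.0473). In OSKT clones 1 to 4 alone both were higher than in R1 (0.53, adjusted p = 0.00638, and 1.48, adjusted p = 0.000116). The mean of the 4 tested primitive endoderm markers was 8.66 to 9.07 in OSKT clones 1 to 4, 7.23 to 7.53 in OSKT clones 5 to 11 and 7.43 to 7.61 in R1 cells. The 1 lower, Lamc1, no longer passed without R1 replicate 2 or 4. Of 20 muscle genes 9 rose and 1 fell, of 12 of mesoderm 2 rose and 2 fell, of 11 of primed epiblast 5 rose and 3 fell, and of 6 of neural ectoderm 1 rose and 1 fell. The 2 higher of mesoderm became 1 without OSKT replicate 1, 2, 3 or 4 or R1 replicate 1, 2 or 4, and the 1 higher of neural ectoderm became 0 without R1 replicate 3.

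The OSKT clones differed among themselves most in genes that were high in clones 1 to 4. Foxq1, a forkhead factor, had a median of 10.90 in clones 1 to 4 and 8.16 in clones 5 to 11, against 8.17 to 8.32 in R1 cells. Cdkn1c, an imprinted inhibitor of the cell cycle, ran from 10.36 to 13.71 over the 11 clones, on both sides of R1 (11.42 to 11.56), and did not pass as a group (adjusted p = 0.651), although it passed in clones 1 to 4 alone (log2 difference 1.53, adjusted p = 0.0019). Igf2 had medians of 15.26 and 13.69 in clones 1 to 4 and 5 to 11. Fgf5, a ligand of the primed epiblast, read 6.87, 7.85 and 9.88, with 7 of 11 clones above background, against 0 of 4 R1 arrays. It passed over all clones (adjusted p = 0.0356) but not without OSKT replicate 1, 2, 3 or 4 or any R1 replicate, and not in clones 5 to 11 alone. Clones 1 to 4 gave 2679 features higher and 2864 lower than R1, and clones 5 to 11 gave 2845 and 2921.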

How the data were processed

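Total RNA of 36 mouse cell samples was hybridised to 1-colour Illumina bead arrays, and the authors deposited unscaled intensity values per probe, made with BeadStudio per the submitters' processing notes (version not given in the sources used here). A second deposited table of scaled intensity values served as an alternative. Of 24613 probes, 5893 (23.9%) held only values between -5.3 and 14.7 on every array and were dropped. In R 4.3.3 with limma 3.58.1, intensities were background-corrected (normexp, offset 16), quantile-normalized and log2-transformed. A probe was above background when it exceeded the percentile 99 of a normal curve fitted to the array's negative values, and was kept when above on at least 4 arrays. The probe with the highest mean stood for each gene (10533 features). All 36 arrays entered the linear model, which had a mean for each group and a trended prior and gave Benjamini-Hochberg adjusted p-values over all features, and those under 0.05 passed. The script was tested on simulated data.

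The members and gene lists were chosen with earlier results of these data known. Genes were named by rule: the 12 highest and 12 lowest that passed, up to 8 each way read in 1 group alone, the reprogramming factors, up to 4 members of each list each way by smallest p, members that did not pass, and Y-linked genes. The 12 highest and 12 lowest, and the genes read in 1 group alone, had an informative symbol. The 12 highest and 12 lowest were also above background on most arrays of both groups. Of the 229 genes run under every alternative, 206 came from the rule and 23 list members were added after their values were seen, as were the stretch of chromosome 14 and the genes that varied most among clones. Replicate numbers were checked as pairs: the correlations of the deviations of same-numbered OSKT and R1 samples were 0.0191, 0.034, -0.17 and 0.0152, so the numbers do not pair them. Alternatives covered the table, scaling, background correction, filter, probe choice, arrays fitted, array weights, a replicate block, averaged near-identical arrays, subsets of clones and leaving out each replicate.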

Additional observations from a re-analysis of the deposited data

Results flagged for a closer look

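In 8 of the 229 genes run, 1 R1 array lay far from the other 3 by Dixon's ratio; chance marks about 5% of groups and 3.49% were marked here. R1 replicate 3 was the highest for Lrpap1 (12.92, next 12.68), Dnmt3b (12.63, next 12.57), Gata6 (8.33, next 7.98) and Ddit3 (10.01, next 9.96), and the lowest for Pcgf1 (10.09, next 10.22). R1 replicate 4 was the highest for Tfap2c (10.51, next 10.42), R1 replicate 1 the highest for Sall2 (7.74, next 7.47) and R1 replicate 2 the lowest for Tex11 (8.58, next 8.80). OSKT clones, a group of 11, were not examined this way.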

How the results depend on the processing

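Leaving out each replicate in turn gave 5206 to 5738 features that passed, 2515 to 2791 higher, 2682 to 2951 lower and 926 to 962 at 2-fold or more. Averaging near-identical arrays of every group, which leaves R1 as 1 sample, reduced the calls to 2454 (1199 higher, 1255 lower). The count at 2-fold or more was 1751 in the authors' scaled table and 1715 without background correction. Median scaling gave 2027 higher and 3701 lower features, so 35.4% of the calls were higher, against 48.7%. With the replicate block, whose numbers do not pair the samples, 2992 features were higher and 3247 lower, and Pou5f1 (-0.27), Nanog (-0.35) and Tbx3 (-0.48) passed as lower. Of the 229 genes run, 67 no longer passed with near-identical arrays of every group averaged, among them Sox2, Tcf3, Nodal, Bmp4, Osmr, Jak1, Vegfa, Ldhb, Eno2, Cbs, Atf4, Eed, Cdkn2a, Peg3, Dazl, Gata2, Cdx2 and Fgf5. The call was lost by 13 in the scaled table, 12 with median scaling, 13 in clones 1 to 4, 13 in clones 5 to 11 and 5 with the replicate block. Gata6, which had not passed, passed as higher in the scaled table, with array weights, with the replicate block, in clones 1 to 4 and without OSKT replicate 5, 6, 7, 9, 10 or 11. Among the genes named, the log2 differences that changed sign belonged to genes that had not passed. With array weights these were Pou5f1 (0.0233), Cdkn1c (-0.102) and Gata4 (-0.0811). In clones 5 to 11 they were Pou5f1 (0.122), Nanog (0.0185), Cdkn1c (-0.478) and Gata4 (-0.218), and in clones 1 to 4 Fgf4 (-0.467). The replicate block turned Fgf4 (-0.206) and H2-K1 (-0.00688), and the scaled table turned Cdh1 (0.0178) and Dnmt1 (0.0396). Leaving out single replicates gave -0.0258 to 0.116 for Gata4 and -0.129 to 0.0152 for Cdh1. The causes were not tested. Signal over background limits the low genes: 8148 measured probes were too dim to be tested.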
